A study of Mus musculus with 13 samples.

Results

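Most of the 49 nuclear genes whose symbols begin with Nduf code for subunits or assembly factors of mitochondrial complex I, with exceptions named below. The 49 genes are part of the 54232 in the count table. They were chosen by symbol alone, leaving out symbols that end in -ps, and all 49 were among the 20143 genes tested. The data are RNA-seq counts of 13 pools of mouse oocytes or eggs, with 25 cells in a pool per the labels. The groups are metaphase II (MII) eggs of Sirena1 Null females (n = 4), MII eggs of wild-type (WT) females (n = 3), germinal vesicle (GV) oocytes of Null females (n = 3) and GV oocytes of WT females (n = 3). Null animals carry a Cas9 deletion of the promoter of the long noncoding RNA Sirena1, and come from heterozygotes bred with C57BL/6NCrl for a pair of generations. The strain field of every sample reads C57BL6/J, and the collection protocol names superovulated C57Bl6/J or C57BL/6NCrl females, so which substrain gave which pool is not stated. GV oocytes were collected with 0.2 mM IBMX, an inhibitor that holds meiosis, and MII eggs 12 to 14 h after hCG.

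Complex I oxidises NADH in its matrix arm, passes the electrons along iron-sulfur clusters to ubiquinone and pumps protons through its membrane arm. Its conserved core is coded partly in the nucleus and partly in mitochondrial DNA, and the many supernumerary subunits around the core are all nuclear. Assembly factors build the arms as separate modules and are not kept in the finished enzyme. Fully grown GV oocytes are largely silent in transcription, and many maternal mRNAs are degraded or change their poly(A) tail length during maturation to MII.

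Of the 49 genes, 7 code for core subunits, 9 for supernumerary subunits of the matrix arm, 19 for those of the membrane arm and 8 for the assembly factors Ndufaf1 to Ndufaf8. Ndufab1, the mitochondrial acyl carrier protein, sits in both arms. The other 5 are Ndufa4, now known as a cytochrome c oxidase subunit, its paralog Ndufa4l2, the Ndufb4 copy Ndufb4c, and the pseudogenes Ndufa11b and Ndufs6b. Ndufb1 is listed as Ndufb1-ps and was left out by the rule. Its level was 22.5 ± 6.72 CPM in MII Null, 19.2 ± 2.17 CPM in MII WT, 49.8 ± 1.25 CPM in GV Null and 45.6 ± 2.47 CPM in GV WT (SD).

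Genes of the respiratory chain are known targets of the transcription factors NRF1, GABPA (an ETS factor) and YY1, and the promoters show which of these letters the members carry. RefSeq promoter windows of GRCm38.p6, 250 bases before to 50 bases after a start, were held for 40 of the 49 members. On either strand, the NRF1 core GCGCATGCG stood in 4 of the 40 members and in 1.95% of all 27025 genes of the table. The ETS core CCGGAAG stood in 6 of 40 (15.0%, against 9.93%) and the YY1 core ATGGCGGC in 7 of 40 (17.5%, against 2.6%). Members with and without a motif had nearly the same median change from GV to MII in WT. The median log2 change was -2.19 with and -2.23 without the NRF1 core, -2.21 and -2.23 for the ETS core, and -2.25 and -2.21 for the YY1 core. The 3 windows below are shown because Ndufa11 and Ndufaf4 share the NRF1 core and lie far apart in their change in maturation, and because Ndufb7 changed most. They stand at chr17:56717512-56717811 (Ndufa11), chr4:24897833-24898132 (Ndufaf4) and chr8:83566508-83566807 (Ndufb7), each on the plus strand. Capitals mark the overlapping NRF1 hits on both strands, 60 bases before the start in Ndufa11 and 113 before it in Ndufaf4, and the ETS core 20 bases before the start in Ndufb7.
Ndufa11: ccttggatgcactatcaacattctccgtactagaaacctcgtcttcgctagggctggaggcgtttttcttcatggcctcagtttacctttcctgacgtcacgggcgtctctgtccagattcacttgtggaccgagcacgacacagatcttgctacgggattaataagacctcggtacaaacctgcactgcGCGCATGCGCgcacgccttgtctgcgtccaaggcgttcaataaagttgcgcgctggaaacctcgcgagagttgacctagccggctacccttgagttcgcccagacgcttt
Ndufaf4: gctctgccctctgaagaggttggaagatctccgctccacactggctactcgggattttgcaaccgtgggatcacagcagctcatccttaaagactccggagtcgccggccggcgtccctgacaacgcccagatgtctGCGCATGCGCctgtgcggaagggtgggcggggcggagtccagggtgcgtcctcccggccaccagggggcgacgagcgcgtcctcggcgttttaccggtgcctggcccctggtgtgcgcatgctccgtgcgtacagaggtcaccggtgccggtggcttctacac
Ndufb7: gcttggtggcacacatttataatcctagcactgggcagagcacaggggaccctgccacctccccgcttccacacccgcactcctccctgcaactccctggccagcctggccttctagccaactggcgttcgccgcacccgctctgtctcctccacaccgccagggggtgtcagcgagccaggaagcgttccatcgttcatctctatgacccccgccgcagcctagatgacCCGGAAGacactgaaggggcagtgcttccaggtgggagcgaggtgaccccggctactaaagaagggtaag

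Levels are CPM (read counts scaled to library size with TMM factors), and changes are log2 fold changes with the standard error (SE) of edgeR's fit. Adjusted p-values are Benjamini-Hochberg values over all 20143 genes, and a gene is said to have fallen or risen where its adjusted p is under 0.05. Total counts ran from 30867614 to 41285507, and the detection limit used here, 3 counts, equals 0.0727 to 0.0972 CPM before TMM factors are applied. Sirena1 itself stood at 35.9 to 45.0 CPM in MII Null against 4271 to 4693 CPM in MII WT, and at 23.3 to 26.4 CPM in GV Null against 2912 to 3092 CPM in GV WT. All 12 oocyte markers had counts in every library. The summed level of 22 cumulus and granulosa cell markers was 106 to 142 CPM in MII Null, 113 to 118 CPM in MII WT and 109 to 144 CPM in GV WT. In GV Null it was 108, 689 and 278 CPM in replicates 1 to 3. From 2 to 10 of these markers were at 0 in MII Null, 8 or 9 in MII WT, 0 to 2 in GV Null and 1 or 2 in GV WT. MII Null replicate 4 lay between the stages on the leading principal component, at 25.7 against 65.8 to 81.4 for the other MII libraries. The labels do not say that pools came from separate females, so p-values measure the spread between pools.

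Nearly every nuclear-encoded complex I mRNA was lower in MII eggs than in GV oocytes, in both genotypes. In Null, 47 of 49 members fell and 0 rose, where 26.9% of all genes tested fell and 22.1% rose. In WT, 47 of 49 fell and 0 rose, where 22.8% of all genes fell and 19.9% rose. The median change of the 49 was -2.18 on the log2 scale in Null, a 4.54-fold lower level, and -2.21 in WT, a 4.62-fold lower level. The median of all genes was -0.05 in Null and 0.01 in WT. The libraries of the stages did not overlap for 46 of 49 members in Null (46.4% of all genes) and for 48 of 49 in WT (58.3% of all genes).

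The summed level of the 49 genes was 408, 327, 321 and 383 CPM in the MII Null libraries, against 1018, 949 and 956 CPM in GV Null. It was 334, 346 and 342 CPM in the MII WT libraries, against 951, 908 and 1005 CPM in GV WT. Every MII library thus lay below every GV library, by 2.71-fold between the Null means and 2.80-fold between the WT means. The 7 complex I mRNAs coded in mitochondrial DNA went the other way and all 7 rose in both genotypes. Their sum was 4273 ± 619 CPM in MII Null against 1494 ± 258 CPM in GV Null, 2.86-fold higher. It was 3674 ± 225 CPM in MII WT against 1071 ± 123 CPM in GV WT, 3.43-fold higher. The ratio of the mitochondrial to the nuclear sum was 10.6 to 13.0 in MII Null against 1.18 to 1.78 in GV Null. In WT it was 10.2 to 11.2 in MII against 1.07 to 1.20 in GV. CPM is a share of a library, so less of a transcript and more of the other RNA cannot be told apart.

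**Figure D1:**
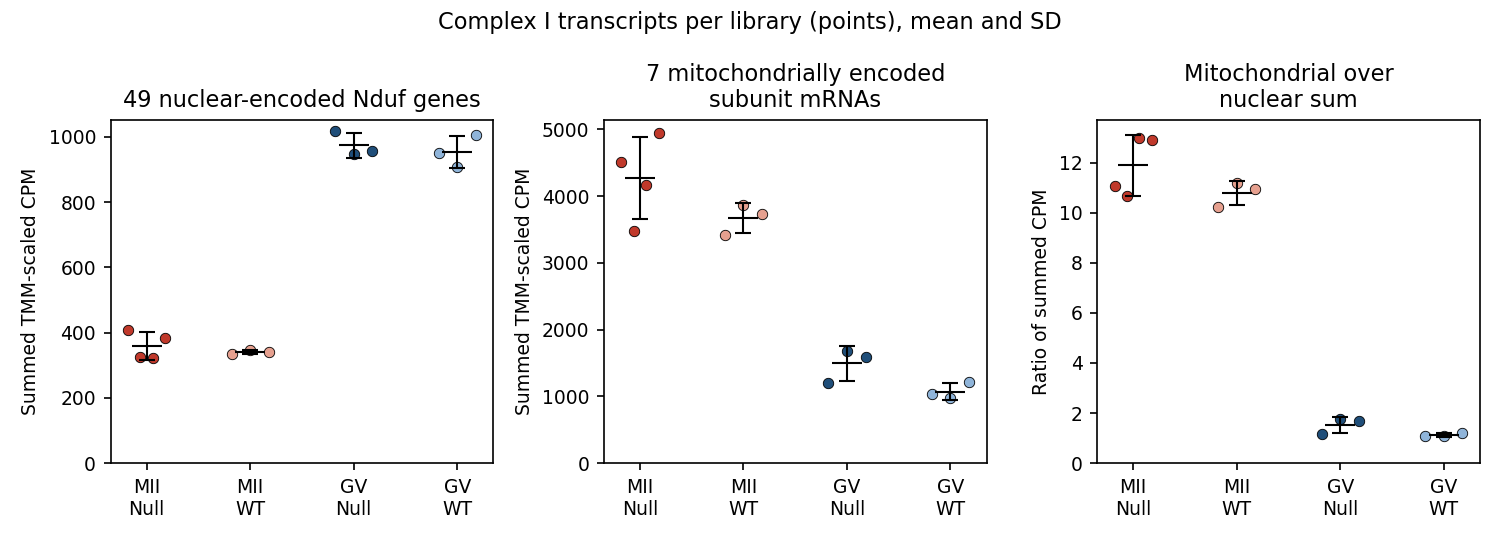
Summed TMM-scaled CPM of the 49 nuclear Nduf genes (left), of the 7 mitochondrially encoded complex I mRNAs (middle) and their ratio (right) in each library, with the mean and SD of each group. The nuclear sum is 321 to 408 CPM in MII Null and 334 to 346 CPM in MII WT, below all GV libraries (908 to 1018 CPM), while the mitochondrial sum is higher in every MII library.

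Some cumulus cell markers differed between the stages too. Of the 20 cumulus markers tested, 13 fell and 0 rose in Null (26.9% of all genes fell), with a median log2 change of -3.56. In WT 6 fell and 1 rose (22.8% of all genes fell), with a median of -2.61. Their summed level averaged 116 CPM in MII WT against 128 CPM in GV WT, but Nr5a2 and Cyp19a1 made up most of it. Nr5a2 had 59.9, 62.2 and 59.4 CPM in MII WT against 54.1, 55.3 and 55.0 CPM in GV WT. Cyp19a1 had 38.8, 33.6 and 37.1 CPM in MII WT against 30.6, 27.7 and 24.9 CPM in GV WT. The sum in WT therefore does not follow the markers that fell. In GV WT replicates 1, 2 and 3 the cumulus sum was 144, 130 and 109 CPM beside complex I sums of 951, 908 and 1005 CPM. Without GV Null replicates 2 and 3 and MII Null replicate 4, the members' median change in Null was -2.25 and 45 of 49 fell. That fit holds 1 GV Null library, which is assumed to vary like the other groups. The part of cumulus RNA in the members' change was not tested.

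The 7 core subunits carry the flavin and the iron-sulfur clusters, and all 7 fell in both genotypes. Ndufv1, which binds NADH and the flavin, had 3.67, 3.75, 1.53 and 4.85 CPM in MII Null and 3.08, 2.55 and 3.52 CPM in MII WT. In GV oocytes it had 31.2, 22.8 and 19.5 CPM in Null and 25.3, 26.0 and 26.4 CPM in WT. No MII library came near a GV library, and the log2 change was -2.83 in Null (SE 0.26, edgeR adjusted p = 1.19e-06) and -3.08 in WT (SE 0.30, adjusted p = 2.00e-06). Ndufs7, an iron-sulfur subunit at the quinone site, changed by -2.91 in Null (SE 0.19) and -2.78 in WT (SE 0.21). Ndufv2, a further iron-sulfur subunit of the NADH module, changed by -2.09 in Null (SE 0.14) and -1.995 in WT (SE 0.15).

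Other core mRNAs fell less far. Ndufs8 changed by -1.91 in Null and -1.59 in WT, and Ndufs3 by -1.27 and -1.52. Ndufs1, the largest iron-sulfur subunit (chromosome 1, 63143592 to 63176822), had 7.90, 10.47, 8.74 and 10.8 CPM in MII Null against 16.99, 16.2 and 14.5 CPM in GV Null. It had 10.1, 12.9 and 10.4 CPM in MII WT against 17.1, 18.9 and 15.6 CPM in GV WT. The stages were apart but close, with a log2 change of -0.75 in Null (SE 0.13, edgeR adjusted p = 0.000113) and -0.63 in WT (SE 0.14, adjusted p = 0.00133). A test against a minimum change of 1.5-fold did not call Ndufs1 in either genotype.

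All 9 supernumerary subunits of the matrix arm fell in both genotypes, with a median log2 change of -2.38 in Null and -2.15 in WT. Ndufa2, a small subunit with a thioredoxin-like fold, had 1.55, 0.770, 0.445 and 2.45 CPM in MII Null against 22.3, 22.2 and 22.3 CPM in GV Null. It had 0.695, 0.896 and 0.413 CPM in MII WT against 20.9, 19.7 and 24.5 CPM in GV WT. The GV libraries were nearly level and the MII Null libraries varied more, far below them. The log2 change was -4.07 in Null (SE 0.35, edgeR adjusted p = 9.94e-07) and -5.02 in WT (SE 0.43, adjusted p = 1.19e-06), a 16.8-fold and a 32.5-fold lower level. Ndufa5 averaged 1.33 ± 0.532 CPM in MII Null against 16.1 ± 0.406 CPM in GV Null, and 0.803 ± 0.217 CPM in MII WT against 15.0 ± 1.503 CPM in GV WT. Its log2 change was -3.59 in Null (SE 0.21) and -4.21 in WT (SE 0.25).

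Ndufa6, which pairs with the acyl carrier protein, changed by -3.29 in Null and -3.72 in WT, and Ndufs6, a zinc-binding subunit, by -2.57 and -2.95. Ndufa9, which binds NADPH, changed by -1.95 and -2.15, and Ndufa7 by -2.38 and -2.06. The smallest changes of this class were those of Ndufa12 (-1.31 in Null and -1.81 in WT), Ndufs4 (-1.29 and -1.27) and Ndufv3 (-1.19 and -1.23). Ndufs4 and Ndufa12 are added late in assembly of the matrix arm. Ndufab1 had 13.4 ± 1.70 CPM in MII Null against 34.5 ± 2.01 CPM in GV Null, and 12.4 ± 1.83 CPM in MII WT against 31.7 ± 2.45 CPM in GV WT. Its log2 change was -1.36 in Null (SE 0.11) and -1.35 in WT (SE 0.13). The Ndufab1-ps copy held 43.6% to 54.0% as many counts as Ndufab1, so reads may be split between them.

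In the membrane arm, 18 of 19 subunits fell in both genotypes, with a median log2 change of -2.60 in Null and -2.62 in WT. Ndufb7, on the intermembrane space side of the membrane arm, had 10, 6, 10 and 20 counts in MII Null against 207, 241 and 265 in GV Null. In WT it had 4, 1 and 6 counts in MII against 268, 213 and 269 in GV. The gene spans chromosome 8 from 83566758 to 83571623. These are 0.353 ± 0.184 CPM in MII Null against 6.23 ± 1.10 CPM in GV Null, and 0.119 ± 0.0789 CPM in MII WT against 6.02 ± 0.686 CPM in GV WT. The log2 change was -4.13 in Null (SE 0.29, edgeR adjusted p = 2.85e-09) and -5.60 in WT (SE 0.39, adjusted p = 3.05e-09), a 17.5-fold and a 48.4-fold lower level. The WT fold rests on these few MII counts, and 1 of them is a single read.

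Ndufa11, a membrane subunit near the contact with complex III in the supercomplex, had 1.60, 0.875, 0.445 and 3.01 CPM in MII Null against 20.8, 24.1 and 26.1 CPM in GV Null. It had 1.06, 1.59 and 0.762 CPM in MII WT against 19.9, 17.8 and 25.7 CPM in GV WT. No values overlapped, and the log2 change was -3.98 in Null (SE 0.41, edgeR adjusted p = 1.23e-05) and -4.22 in WT (SE 0.48, adjusted p = 3.19e-05). Ndufa1, a small X-linked subunit needed for assembly, averaged 0.968 ± 0.726 CPM in MII Null against 15.2 ± 0.529 CPM in GV Null. It averaged 0.763 ± 0.148 CPM in MII WT against 14.0 ± 1.59 CPM in GV WT, and changed by -3.97 in Null (SE 0.33) and -4.19 in WT (SE 0.38). Of the distal membrane arm, Ndufb3 changed by -3.67 in Null (SE 0.17) and -3.83 in WT (SE 0.20), and Ndufb5 by -3.58 (SE 0.20) and -4.10 (SE 0.24).

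Ndufa10 was the exception among the subunits. This membrane arm subunit has a nucleoside kinase fold. It had 41.03, 32.9, 38.0 and 37.5 CPM in MII Null against 44.6, 40.6 and 42.3 CPM in GV Null. It had 34.8, 37.5 and 38.0 CPM in MII WT against 38.9, 41.1 and 44.5 CPM in GV WT. The Null libraries overlapped and the WT libraries did not, and the log2 change was -0.19 in Null (SE 0.09, edgeR adjusted p = 0.0855) and -0.17 in WT (SE 0.09, adjusted p = 0.144). Without TMM factors Ndufa10 passed the threshold as lower in both genotypes, with -0.41 in Null and -0.37 in WT, and the median of all genes then moved to -0.28 in Null and -0.20 in WT. It also passed with genes of at least 5 CPM alone (-0.34 in Null and -0.31 in WT), without MII Null replicate 1 (-0.27), and in a fit of the WT groups alone (-0.21). The gene spans chromosome 1 from 92439486 to 92473825 (GRCm38.p6, RefSeq). The next smallest change in the membrane arm was that of Ndufb11, at -1.11 in Null (SE 0.11) and -1.06 in WT (SE 0.12).

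**Figure D2:**
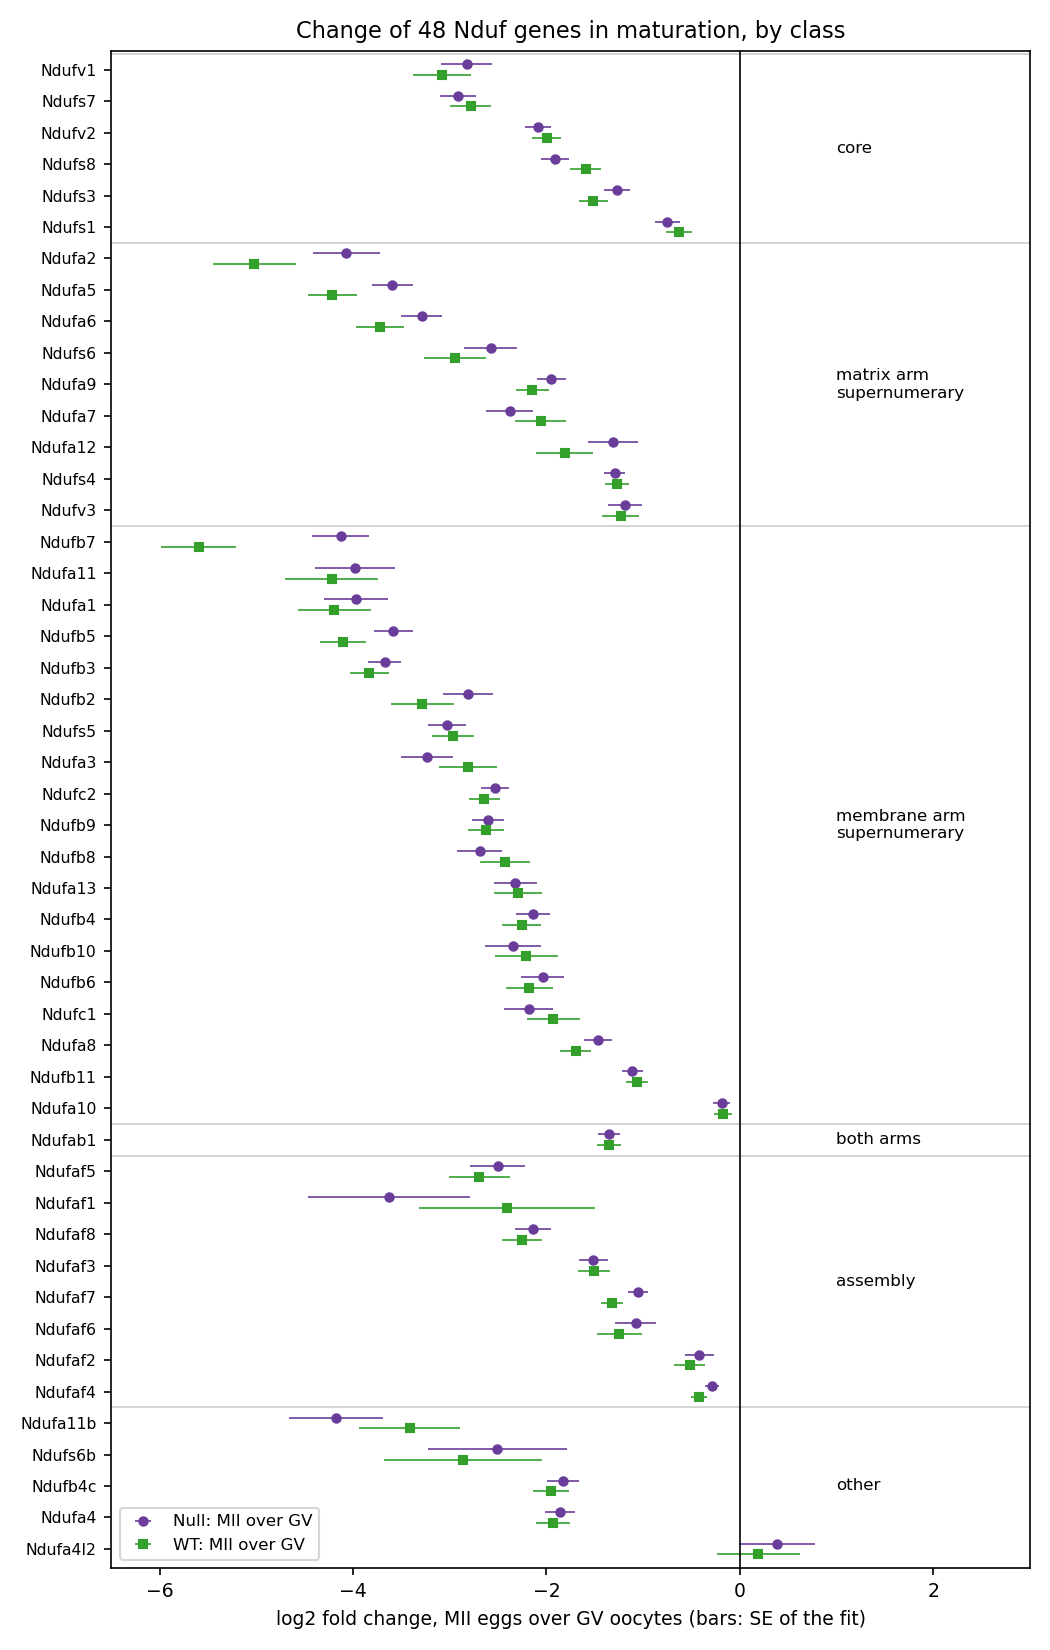
log2 fold change of 48 of the 49 Nduf genes in MII eggs over GV oocytes, in Null (circles) and WT (squares), with the SE of the fit, by class and sorted by the WT value. All points but those of Ndufa4l2 lie left of 0, from -5.60 (Ndufb7 in WT) to -0.17 (Ndufa10 in WT).

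All 8 assembly factors with an Nduf symbol fell in both genotypes, with a median log2 change of -1.30 in Null and -1.42 in WT. Their summed level was 130 ± 11.6 CPM in MII Null against 196 ± 13.4 CPM in GV Null, and 123 ± 4.23 CPM in MII WT against 203 ± 3.54 CPM in GV WT. That is a 1.51-fold lower level in Null and 1.64-fold in WT, where the core subunits' sum was 2.78-fold and 2.79-fold lower. Ndufaf4, which acts with Ndufaf3 in the early matrix arm intermediate, had 104, 87.8, 87.7 and 94.7 CPM in MII Null against 124, 107 and 111 CPM in GV Null. It had 86.6, 91.2 and 92.2 CPM in MII WT against 120.4, 119.6 and 121.4 CPM in GV WT. The stages did not overlap in either genotype, and the log2 change was -0.29 in Null (SE 0.07, edgeR adjusted p = 0.00400) and -0.42 in WT (SE 0.08, adjusted p = 0.000343). Its partner Ndufaf3 changed by -1.52 in Null (SE 0.15) and -1.51 in WT (SE 0.17). Against a minimum of 1.5-fold, Ndufaf4 and Ndufaf2 were not called in either genotype.

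Ndufaf5, which hydroxylates Ndufs7, changed by -2.50 in Null (SE 0.28) and -2.69 in WT (SE 0.32), and its partner Ndufaf8 by -2.14 (SE 0.18) and -2.25 (SE 0.21). Ndufaf7, a methyltransferase, changed by -1.05 in Null (SE 0.10) and -1.32 in WT (SE 0.11), and Ndufaf6 by -1.08 (SE 0.21) and -1.24 (SE 0.23). Ndufaf2, a paralog of Ndufa12, changed by -0.42 in Null (SE 0.15, edgeR adjusted p = 0.0266) and -0.52 in WT (SE 0.16, adjusted p = 0.0146). That call was lost without any of GV Null replicate 1 and MII Null replicates 2, 3 and 4 (adjusted p up to 0.184) and in a fit of the Null groups alone (adjusted p = 0.0648), and in WT on leaving out either of MII WT replicates 1 and 2 (edgeR adjusted p of 0.0512 and 0.0714). Ndufaf1, which binds membrane arm intermediates, had 0, 6, 1 and 0 counts in MII Null against 16, 46 and 21 in GV Null, a log2 change of -3.62 (SE 0.84, edgeR adjusted p = 0.00154). Without GV Null replicates 2 and 3, which leaves 1 GV Null library, it was -2.73 and not called (adjusted p = 0.106). In WT it had 3, 0 and 4 counts in MII against 14, 20 and 18 in GV, and the call (adjusted p = 0.0408) was lost without any one of these 6 libraries (adjusted p 0.0603 to 0.149).

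**Figure D3:**
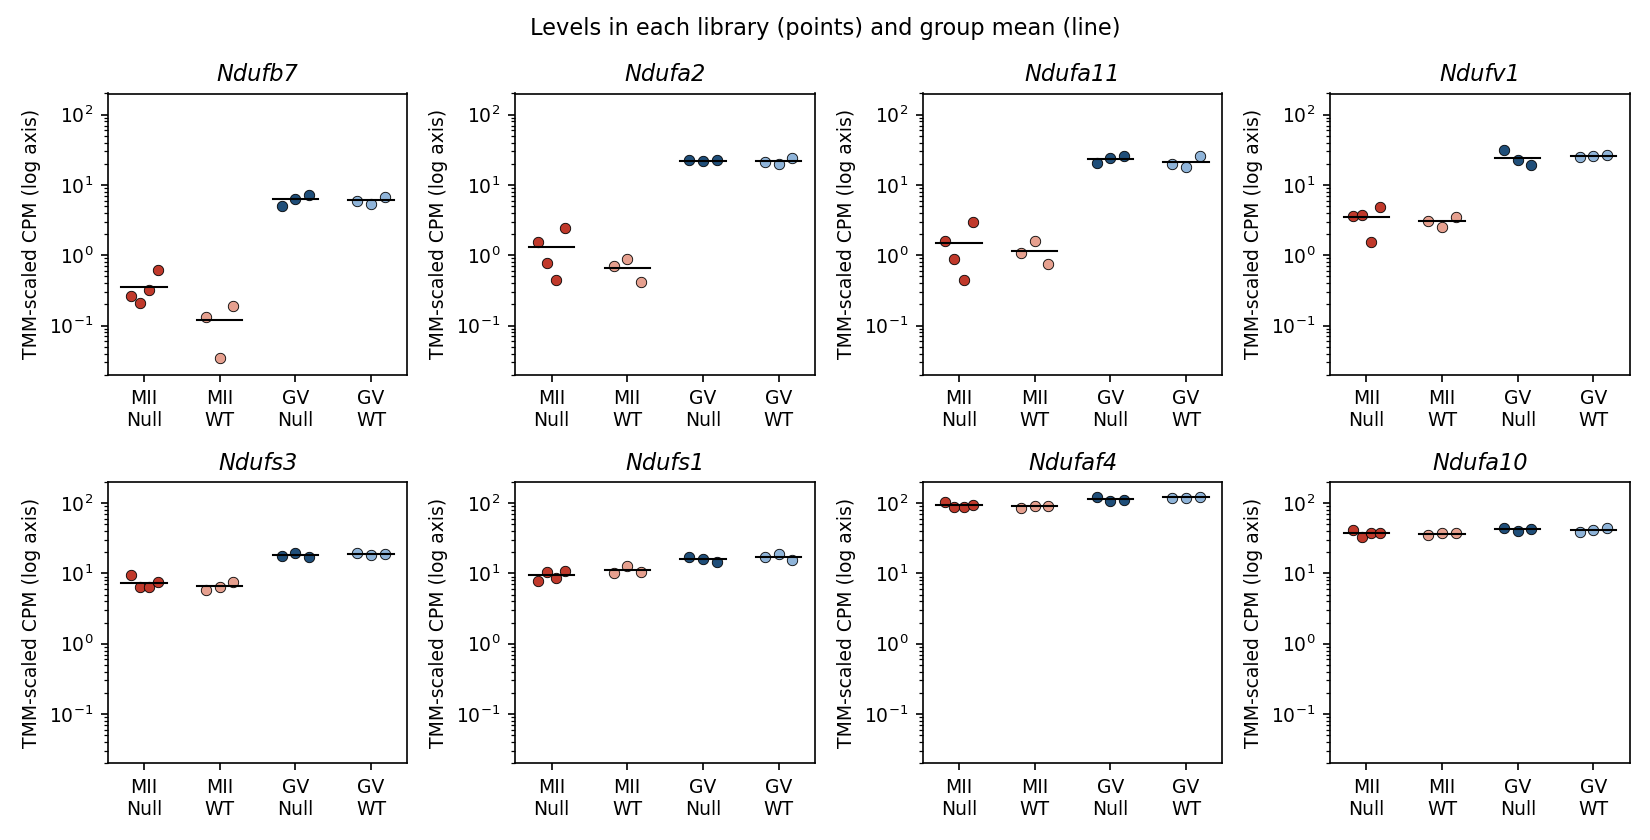
TMM-scaled CPM on a log axis of 8 Nduf genes in each library of the 4 groups, with the group mean as a line. Ndufb7, Ndufa2, Ndufa11 and Ndufv1 (top) lie far lower in every MII library, while Ndufs3 is 2.86-fold lower in WT, Ndufs1 and Ndufaf4 are lower by 1.68-fold or less in either genotype and Ndufa10 is nearly level.

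Among the other members, Ndufa4 averaged 9.90 ± 2.82 CPM in MII Null against 36.03 ± 1.04 CPM in GV Null, and 9.17 ± 1.10 CPM in MII WT against 35.0 ± 0.892 CPM in GV WT. Its log2 change was -1.86 in Null (SE 0.16) and -1.93 in WT (SE 0.18). Ndufa4l2, known for its induction under low oxygen, had 1.21, 0.630, 1.049 and 0.777 CPM in MII Null against 0.393, 0.708 and 1.02 CPM in GV Null. It had 0.762, 0.414 and 1.08 CPM in MII WT against 0.605, 0.501 and 0.873 CPM in GV WT. The stages overlapped, with a log2 change of 0.39 in Null (SE 0.39, edgeR adjusted p = 0.444) and 0.19 in WT (SE 0.43, adjusted p = 0.748). Ndufb4c held 62.8% to 83.5% as many counts as Ndufb4 in each library, so reads may be split between the pair, which changed by -1.83 and -2.14 in Null and by -1.96 and -2.26 in WT. Ndufs6b had 1 or 2 counts in each MII Null library against 6 to 12 in GV Null, and 0, 2 and 1 in MII WT against 6 to 14 in GV WT. Its call as lower in WT was lost without MII WT replicate 1 (edgeR adjusted p = 0.0523). With 1 GV Null library left, without replicates 2 and 3, its change in Null was -2.84 and not called (adjusted p = 0.0574). Ndufa11b, at 1 to 4 counts in every MII library, had 0.0543 ± 0.0468 CPM in MII Null against 1.04 ± 0.169 CPM in GV Null, and 0.0773 ± 0.0193 CPM in MII WT against 0.857 ± 0.141 CPM in GV WT. Its means in MII Null and in MII WT both lie under the detection limit of every library of their group. The spans of 16 members overlap that of another gene, such as Ndufb11 with Rbm10 and Ndufs1 with Ino80dos, and whether the counting used strand is not known from the labels.

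The changes of the genes were alike in both genotypes. Across the 49 genes, the log2 changes in Null and in WT had a Pearson r of 0.948 and a Spearman rho of 0.966, and 42 of 49 lay within 0.5 of each other. This describes genes that share libraries and 1 fit, not independent replicates. In WT, 11 members fell past the threshold by over 8-fold, as did 3.6% of all genes. A further 17 were 4- to 8-fold lower and 21 were less than 4-fold lower or not lower.

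Assembly genes named otherwise moved less. Of 14 tested, 8 fell and 0 rose in Null, and 10 fell and 1 rose in WT, with medians of -0.72 and -0.72. Beside this list and those below, 26.9% of all genes fell and 22.1% rose in Null, and 22.8% fell and 19.9% rose in WT. Nubpl, which delivers iron-sulfur clusters to complex I, changed by -1.60 in Null (SE 0.17) and -2.08 in WT (SE 0.19), and Ecsit, which binds Ndufaf1, by -1.18 (SE 0.16) and -1.47 (SE 0.18). Dmac2 was the gene that rose in WT, by 0.40 (SE 0.12). Of 9 tested regulators of nuclear mitochondrial genes, 4 fell and 1 rose in Null, and 5 fell and 1 rose in WT. Gabpa changed by -1.82 in Null (SE 0.53) and -2.02 in WT (SE 0.61), and the coactivator Pprc1 rose by 0.33 (SE 0.10) and 0.38 (SE 0.10). Of 50 tested nuclear genes of complexes II to V, 42 fell and 1 rose in Null and 41 fell and 0 rose in WT, with medians of -1.81 and -1.83. Genes of the other complexes thus fell as well.

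None of the 49 nuclear Nduf genes passed the threshold between Null and WT at either stage. In MII eggs 0 of 49 members passed, where 0.0546% of all genes did, and 4 of 49 had an unadjusted p under 0.05, where 6.35% of all genes did. In GV oocytes 0 of 49 passed, where 0.0546% of all genes did, and 1 of 49 had an unadjusted p under 0.05, where 6.66% of all genes did. DESeq2 called 0 of 49 at each stage. The members' median log2 change, Null over WT, was 0.12 in MII (all genes 0.01) and 0.05 in GV (all genes 0.02). The SE of single members ran from 0.08 to 1.08 in MII and from 0.08 to 0.72 in GV, so small differences were not detectable for many of them.

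In MII eggs 39 of 49 members lay above 0, where 53.2% of all genes did. Genes of complexes II to V leaned the same way, with 38 of 50 above 0 and a median of 0.18. The libraries of Null and WT did not overlap for 3 of 49 members, where 6.07% of all genes did not. These 3 were Ndufb7 and Ndufb2, higher in Null, and Ndufs8, lower in Null. Ndufb7 differed by 1.52 (SE 0.48, edgeR adjusted p = 0.581) on the 10, 6, 10 and 20 counts in Null and 4, 1 and 6 in WT given above. Ndufb2 had 0.551, 0.420, 0.445 and 0.839 CPM in Null against 0.331, 0.138 and 0.349 CPM in WT, and differed by 1.03 (SE 0.34, adjusted p = 0.624). All 4 Null libraries lay above the 3 WT libraries, by a small margin for the lowest. Ndufa5 and Ndufa6 were the other members with an unadjusted p under 0.05, at 0.73 (SE 0.27, edgeR adjusted p = 0.696) and 0.59 (SE 0.26, adjusted p = 0.772).

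Among members of at least 5 CPM in the higher group, Ndufb4 differed by 0.36 in MII (SE 0.19, edgeR adjusted p = 0.824), its copy Ndufb4c by 0.33 (SE 0.18), and Ndufs3 by 0.18 (SE 0.14). Ndufs1 differed by -0.23 (SE 0.13, adjusted p = 0.837) and Ndufv2 by -0.10 (SE 0.14). MII Null replicates 1 and 4 had the highest summed levels of the 4 (408 and 383 CPM against 327 and 321 CPM). Replicate 4 was the highest MII Null library for 10 of the 11 members that were over 8-fold lower in WT eggs. Replicate 1 was the highest for 11 of the 17 members that were 4- to 8-fold lower and for 14 of the remaining 21. Without replicate 1 alone 28 of 49 members lay above 0 in MII, and without replicate 4 alone 30 of 49. Without both, a choice made after seeing these values and one that lowers the share by its construction, 12 of 49 lay above 0 and the median was -0.08. Ndufb7 was then at 1.12 and Ndufa2, at 0.99 with all libraries, at -0.13.

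In GV oocytes 30 of 49 members lay above 0, where 53.7% of all genes did, and 7 of 49 did not overlap between Null and WT, where 12.8% of all genes did not. Ndufb2 ranked first by p, with 3.51, 4.09 and 4.37 CPM in Null against 2.78, 2.61 and 2.72 CPM in WT, a log2 change of 0.56 (SE 0.25, edgeR adjusted p = 0.725). Ndufa3, a small membrane arm subunit, had 7.07, 9.17 and 7.94 CPM in Null against 6.43, 6.39 and 5.54 CPM in WT. It differed by 0.40 (SE 0.25, adjusted p = 0.830) with no overlap. Ndufa7 differed by 0.35 (SE 0.24) and Ndufaf3 by 0.21 (SE 0.16). Ndufaf7 had 26.7, 24.8 and 23.6 CPM in Null against 26.8, 29.6 and 28.5 CPM in WT, and differed by -0.18 (SE 0.11, adjusted p = 0.822). Ndufaf4 differed by -0.08 (SE 0.08) and Ndufa9 by -0.15 (SE 0.16). With 1 GV Null library left, without replicates 2 and 3 that had the most cumulus RNA, both were above 0, at 0.04 and 0.05.

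**Figure D4:**
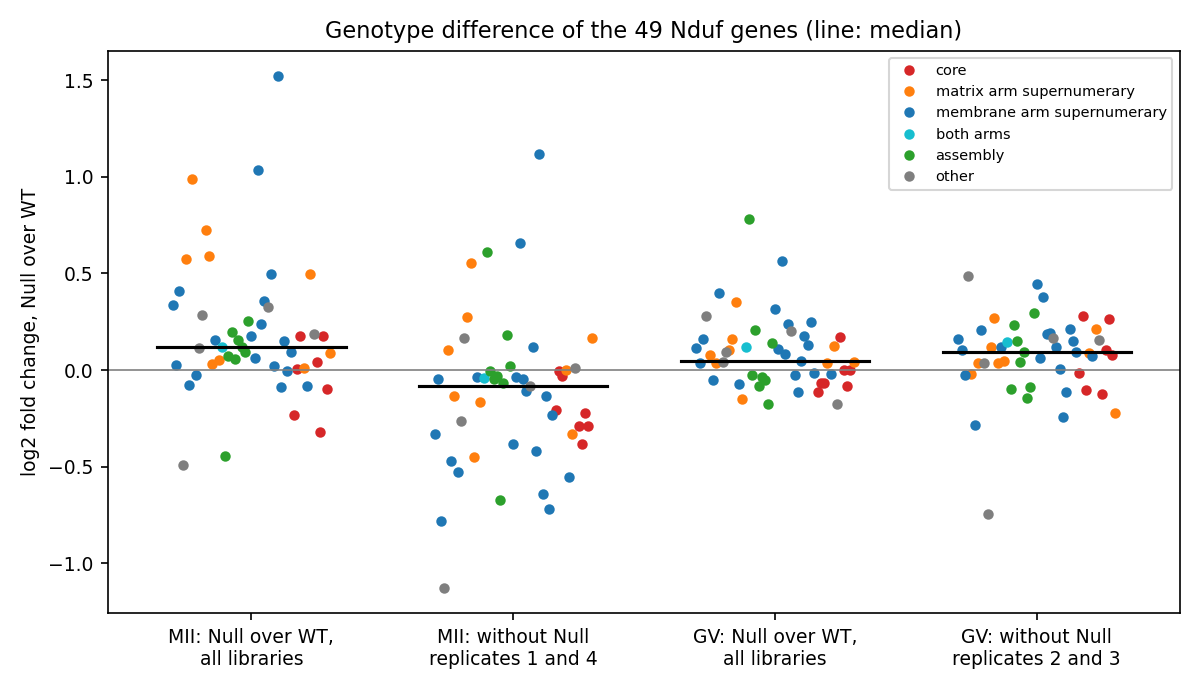
log2 fold change, Null over WT, of the 49 Nduf genes in MII eggs and in GV oocytes, with all libraries and without the replicates named on the axis, coloured by class, with the median as a line. The MII median is 0.12 with all libraries and -0.08 without MII Null replicates 1 and 4, and the GV median is 0.05 and 0.10 without GV Null replicates 2 and 3.

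The effect of genotype was not shown to differ between the stages for any member. Of 49 members, 0 passed the threshold for the difference (0.00496% of all genes), and 1 had an unadjusted p under 0.05, where 3.38% of all genes did. That member was Ndufb7, at 1.47 (SE 0.54, edgeR adjusted p = 0.999). Ndufa5 followed at 0.62 (SE 0.33), Ndufaf7 at 0.27 (SE 0.15) and Ndufb5 at 0.52 (SE 0.31). The median difference of the members was 0.12, and -0.15 without MII Null replicates 1 and 4.

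The lists beside the members also held 0 genes past the threshold between genotypes, apart from the mitochondrial mRNAs. They were not all level. In GV oocytes 9 of the 20 cumulus markers had an unadjusted edgeR p under 0.05, where 6.66% of all genes did. Of these 20, 19 lay above 0, with a median of 2.13. The libraries of Null and WT did not overlap for 1 of the 20, where 12.8% of all genes did not. The cumulus sum was 108, 689 and 278 CPM in GV Null replicates 1 to 3 against 109 to 144 CPM in GV WT. Replicate 1 was thus not higher than WT. In MII eggs 2 of 20 had such a p, where 6.35% of all genes did. Of the 7 complex I mRNAs coded in mitochondrial DNA, 6 had an unadjusted edgeR p under 0.05 in GV oocytes and 3 in MII eggs. Their sum was 1200, 1685 and 1596 CPM in GV Null replicates 1 to 3 against 1034, 972 and 1209 CPM in GV WT. Replicate 1 thus lay within the WT range. In GV oocytes 6 of the 7 mRNAs had values above 0, from 0.20 to 0.64, and in MII eggs 5, from 0.08 to 0.50. None of those above 0 passed the threshold. In contrast, mt-Nd3, a core subunit of the membrane arm, was lower in Null at both stages. It averaged 34.9 CPM in MII Null against 72.8 CPM in MII WT, a log2 change of -1.06 (SE 0.12, edgeR adjusted p = 0.000722). It averaged 9.06 CPM in GV Null against 21.0 CPM in GV WT, a log2 change of -1.21 (SE 0.14, adjusted p = 0.000735). Which substrain gave which pool is not stated, and whether this difference goes with the Sirena1 deletion or with substrain was not tested.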

How the data were processed

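The authors deposited raw counts of reads per gene (Ensembl release 93) for 13 libraries, made with the Ovation RNA-Seq system and read as 65 bp single ends per the labels' protocols. STAR 2.5.3a, bedtools 2.26.0 and GRCm38.p6 are named in the submitters' processing notes. No source used here gives the counting tool, its strand setting or its treatment of reads with several matches, so close copies and overlapping genes may share reads. The labels name a spike-in RNA and poly(A) RNA, but the table has 0 lines that are not genes, and neither spike-in counts nor tail lengths were used here. No column was left unused.

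Symbols and coordinates come from name and RefSeq tables of GRCm38.p6, which matched all 49 members. No transcript lengths or protein sequences were used, so levels are compared within a gene only. Counts of all 13 libraries were fitted in 1 model with 4 groups in edgeR 4.0.16 (R 4.3.3), with TMM factors, filterByExpr by group, glmQLFit (robust) and two-sided glmQLFTest for 5 comparisons. The test was tried on simulated data, with known changes in a small part of the genes, all above a minimum mean count. That trial does not cover genes with few counts, or a setting such as maturation where many genes change. Each library holds 30867614 to 41285507 counts. The detection limit of 3 counts covers counting error alone, since reads carry no molecular identifiers. Replicates differed by more than sampling noise (chi-square of 5.03 to 34.3 per degree of freedom), so none was merged. Alternatives were RLE scaling, library size alone, no filter, a mean of at least 5 CPM, DESeq2 1.42.0, only the groups compared, a replicate block, a minimum of 1.5-fold and leaving out libraries.

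The members, gene lists and tests were chosen with earlier results of these data known. Named were core subunits, assembly factors, Ndufab1, Ndufa4 and Ndufa4l2, in maturation the 6 largest changes past the threshold per direction (at least 5 CPM in the higher group), between genotypes the 3 smallest p-values per direction (same minimum, and at most that many exist), and the 4 smallest for the difference. Other members are named as examples, chosen after their values were seen. The values of 1 member are not reported here, and it stays in all counts, sums and medians.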

Additional observations from a re-analysis of the deposited data

Results flagged for a closer look

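Among 53 values tested in the 4 MII Null libraries, 3 had 1 library far from the rest, and chance alone flags about 1 in 20. Ndufa12 was at 6.82 CPM in MII Null replicate 1, against 2.48 to 3.15 CPM in the other 3. Ndufa11b was at 0.124 CPM in replicate 4, against 0.0262 to 0.0350 CPM, and Ndufaf1 at 0.210 CPM in replicate 2, against 0 to 0.0318 CPM. The last pair lies near the detection limit. Why these libraries differ was not tested.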

How the results depend on the processing

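The count of members that fell in maturation was 46 to 48 in Null and 44 to 46 in WT when single libraries were left out. Of all genes, from 8234 of 20519 to 10217 of 20884 were then called in either direction in Null. In WT these were 7274 of 21062 to 7529 of 21066. With single libraries left out, 0 members were called between genotypes or for the difference. The members' median then ran from -2.50 to -2.09 in Null maturation, -2.26 to -2.06 in WT maturation, 0.04 to 0.24 for genotype in MII, 0.01 to 0.13 in GV and 0.01 to 0.23 for the difference. With library size alone the maturation medians were -2.41 in Null and -2.41 in WT. With no filter on low counts, 1 member (Ndufa2, 1.00) was called in MII between genotypes and 0 in GV. Of all 39595 genes then tested, 290 were called in MII and 644 in GV, against 11 of 20143 at each stage in the main fit. Without MII Null replicates 1 and 4 the median was -0.0827 in MII and -0.15 for the difference, and Ndufb4 (-0.11), Ndufb4c (-0.0827) and Ndufs3 (-0.0328) changed sign. Ndufv2 changed sign in MII without MII Null replicate 3 (0.0399, with -0.190 to 0.0399 over single libraries left out), as did Ndufa9 (0.0490) and Ndufaf4 (0.0413) in GV without GV Null replicates 2 and 3, with 1 GV Null library left. In WT maturation Ndufa4l2 changed sign with library size alone (-0.00472) and without MII WT replicate 3 (-0.161, with -0.161 to 0.482 over single libraries left out). The cause was not tested. A minimum of 1.5-fold left 44 members in Null and 43 in WT, where 3230 and 2707 of all 20143 genes were called. DESeq2 called 47 members in each, where 10086 of 26778 genes were called in Null and 8491 of 25272 in WT. Between genotypes DESeq2 called 39 of all genes in MII and 25 in GV, where edgeR called 11 at each stage. Correlations of the deviations of same-numbered libraries ran from -0.22 to 0.14, and those of other pairs from -0.33 to 0.32. With 3 or 4 libraries per group these cannot settle whether the numbers pair pools, and the labels do not say. With a replicate block, 46 members fell in Null (Ndufaf2 was lost, adjusted p = 0.0615) and 47 in WT, 0 differed by genotype at either stage, and the medians were -2.33 and -2.24 in maturation and 0.05 in MII and 0.05 in GV. Of all 20143 genes, 9872 were then called in Null maturation and 8752 in WT, in either direction. In MII 27 of 49 members then lay above 0, against 39 in the main fit, and the median difference between the stages was -0.0013. Depth limits Ndufb7, Ndufaf1, Ndufs6b and Ndufa11b in MII, where libraries held from 0 to 20 counts.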
